A study of Homo sapiens with 16 samples.

Results

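The comparison is of HCC4006 cells treated with gefitinib and AZ1366 together against the same cells treated with vehicle. HCC4006 is an established line of human non-small cell lung cancer that carries an activating mutation of EGFR, the receptor for epidermal growth factor. Gefitinib inhibits the kinase of that receptor, and AZ1366 inhibits the tankyrases, enzymes that attach chains of ADP-ribose to other proteins. The 4 combination libraries (100 nM of each compound) and the 4 vehicle libraries (DMSO) make up 8 of the 16 libraries, and the others hold 4 of gefitinib alone and 4 of AZ1366 alone (100 nM each). All cells were treated for 24 hours in medium with serum, and polyA RNA was sequenced. Of 24293 loci, 11647 with an average of 1 FPKM or more across the 16 libraries entered the comparison. FPKM divides the fragments of a locus by its length and by the size of the library. The line is 1 culture model from 1 tumour, and the labels do not tell whether replicates were grown apart. The tests below thus compare the treatments with a variation among libraries that may be only technical.

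Active EGFR drives the RAS-ERK kinases, which induce growth genes together with their own feedback inhibitors, and the PI3K-AKT kinases, which support growth and hold the FOXO transcription factors outside the nucleus. Tankyrases mark AXIN for degradation. AXIN is the scaffold of the complex that degrades beta-catenin, so tankyrase inhibitors are known to restrain Wnt signalling. Angiomotins, which hold the growth coactivator YAP of the Hippo pathway in the cytoplasm, are also tankyrase substrates.

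FPKM totals per library ranged from 433357 to 478179. Depth is unknown, since these values carry no counts, and precision is limited by the number of libraries. Pairs of libraries correlated across loci at 0.997 to 0.998 within the combination, at 0.994 to 0.998 within vehicle, and at 0.923 to 0.943 between the groups. Library 1 of vehicle and library 1 of AZ1366 stood apart from the others of their groups on the first principal component (-39.3 against -35 to -34, and -19.6 against -6.5 to -3.1). Without the first, 3409 loci were called higher and 5583 lower than with vehicle, and without the second, 3527 higher and 3695 lower than with AZ1366 alone. On the first principal component, libraries 1 and 2 of the combination stood at 32.6 and 31 and libraries 3 and 4 at 38.1 and 37. Those of gefitinib split in the same way, at 6.58 and 5.32 against 13.2 and 13.3. Leaving out any 1 of the 8 libraries moved the counts called against vehicle in the gene groups below by at most 3 genes. Counts of gene groups against the single compounds or the other 12 libraries were not recomputed in this way. The summed level of 9 lung epithelial markers was 5205 to 5929.1 FPKM with vehicle and 3582.1 to 3973.9 FPKM with both compounds, lower mainly through keratins described below, while single members differed in direction (EPCAM at 229 FPKM with vehicle and 291.7 FPKM with both compounds), and the lineage factor NKX2-1 was present at 6.5 and 8.64 FPKM. NAPSA and SFTPB, markers of differentiated alveolar cells, stayed below 1 FPKM in all 16 libraries. Of 14 markers of fibroblasts, immune cells and endothelium, 4 reached 1 FPKM in any of the 8 libraries and 0 were at 0 in all 8. Their summed levels were 1.98 to 2.17 with vehicle and 2.87 to 3.14 with both compounds for fibroblasts, 1.06 to 1.28 and 1.7 to 1.99 for immune cells, and 0.717 to 0.818 and 3.57 to 3.94 for endothelium. KDR made up most of the last, and the share of these markers in the results was not tested.

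Under both compounds, 3488 loci were higher than with vehicle (29.9% of those tested) and 5753 were lower (49.4%), by limma on log2(FPKM + 1) with Benjamini-Hochberg adjustment over all tested loci and a threshold of 0.05. A change of at least 1 on the log2 scale was found at 459 loci that rose (3.94%) and 861 that fell (7.39%). The 4 combination libraries lay above the 4 vehicle libraries at 3307 loci (28.4%) and below them at 5604 (48.1%). The median change was -0.15, and the middle 80% of loci lay between -0.9 and 0.64. Of the called loci, 37.7% were higher as deposited, 48.6% after quantile normalization and 50.1% after median-ratio scaling, which moved the median change of all loci to -0.02 and 0. Counts for a group of genes are therefore to be read beside the shares for all loci, 29.9% higher and 49.4% lower against vehicle. Members of a group under the limit of 1 FPKM are not counted, and members low with vehicle could pass it only through treated libraries. Differences in log2(FPKM + 1) understate the change of genes with low values.

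**Figure D1:**
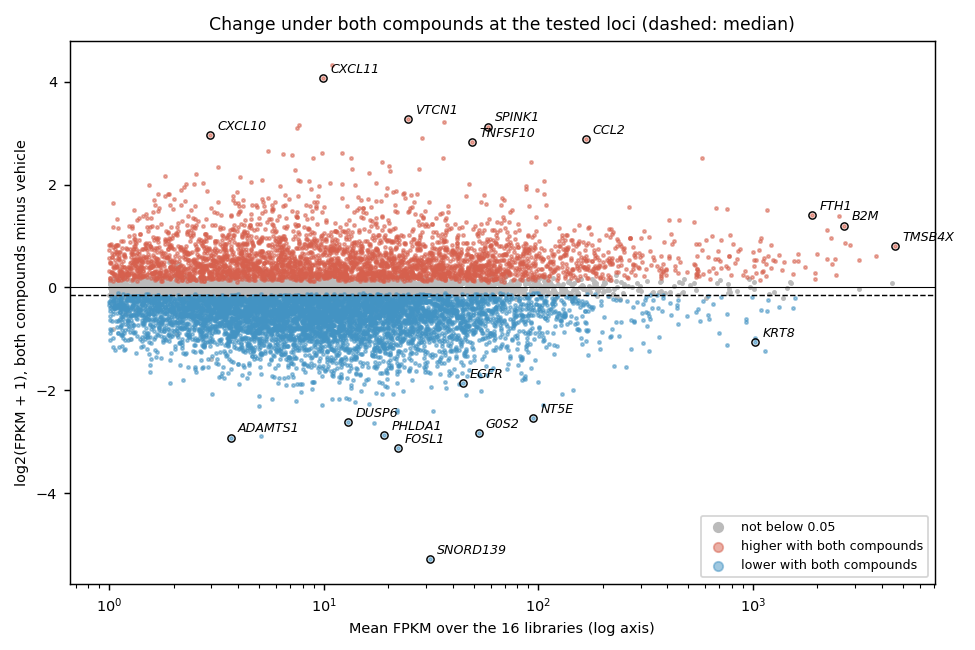
Change in log2(FPKM + 1) under both compounds (vertical axis) against the mean FPKM over the 16 libraries on a log axis (horizontal axis), 1 point per tested locus, coloured by the limma call at an adjusted p of 0.05. More loci fell (5753) than rose (3488), the dashed median lies at -0.15, and named genes are circled.

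Shorter transcripts tended to be higher and longer ones lower. With the loci ranked by transcript length and cut into 5 equal groups, the median change ran from 0.17 in the shortest group (median length 1175 bases) through -0.01, -0.23 and -0.29 to -0.37 in the longest (6302 bases), with a Spearman rho of -0.339 across 11567 loci, which are not independent replicates. No such trend appeared for GC content (rho = -0.00831). The part of transcript length in the results on gene groups was not tested, and the values after a correction for length and GC are given beside some of the groups that it moves.

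Genes induced through ERK were lower under both compounds, and EGFR itself was among the genes that fell. Of 27 tested genes of ERK output, 21 fell and 4 rose, with a median of -1.14 against -0.15 for all loci. The 4 that rose were JUNB (0.61), KCNN4 (0.36), TFPI2 (0.32) and SPRY1 (0.23). DUSP6, the phosphatase that inactivates ERK and is itself induced by ERK (chr12:89741837-89746296, hg19), measured 23.5, 23.6, 23 and 23.8 FPKM in the vehicle libraries and 3.39, 3.28, 2.61 and 2.67 FPKM in the combination libraries. The gefitinib libraries overlapped the combination (2.78, 2.95, 2.39 and 2.71 FPKM), and the AZ1366 libraries overlapped vehicle with a wider spread (26.2, 20, 21.7 and 23.5 FPKM). Its change from vehicle was -2.62 ± 0.08 (SE, adjusted p = 1.5e-14), and its difference from gefitinib alone did not pass the test as deposited (0.1 ± 0.08, adjusted p = 0.294) but did after quantile normalization (0.23, adjusted p = 0.00158) and median-ratio scaling (0.19, adjusted p = 0.0073).

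FOSL1, the AP-1 subunit FRA1 (chr11:65659692-65667997), measured 51.2, 57.1, 44.6 and 45.3 FPKM with vehicle and 4.43, 5.03, 4.88 and 4.7 FPKM with both compounds. It stood at 11.4 ± 1.06 FPKM with gefitinib and 22.7 ± 3.76 with AZ1366 (SD, n = 4), and all 4 combination libraries lay below the other 12. Its change from vehicle was -3.13 ± 0.1 (adjusted p = 2.9e-14). PHLDA1, a gene induced by growth factors, fell by 2.87 on the log2 scale, and EPHA2, an ephrin receptor, fell by 2.4. CCND1, the cyclin that starts the G1 phase (chr11:69455873-69469242), measured 209.9, 192.8, 190.9 and 193 FPKM with vehicle and 39.5, 45, 36.8 and 38.1 with both compounds, against 64.9 ± 4.77 with gefitinib and 119.6 ± 18.5 with AZ1366. The groups of CCND1 did not overlap, and its change from vehicle was -2.28 ± 0.088 (adjusted p = 2.36e-13).

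EGFR (chr7:55086725-55275031) measured 84, 77.1, 74.8 and 74.7 FPKM in the vehicle libraries and 22.4, 23.4, 18.9 and 18.6 FPKM in the combination libraries. With gefitinib alone it stood at 38.1 ± 4.06 and with AZ1366 alone at 41.3 ± 8.92, so the combination lay below every other library. It fell by 1.86 on the log2 scale (SE 0.11, adjusted p = 9.3e-11). Among 10 tested genes of the receptor family and its ligands, 8 fell and 2 rose. The ligands AREG, TGFA and NRG1 fell by 1.77, 1.05 and 1.46, and the levels of AREG are uncertain because its symbol stands at several loci. ERBB3 (0.64), the partner receptor that lacks strong kinase activity of its own, and ERBB2 (0.32) were the 2 that rose.

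Of 16 other receptor kinases and adaptors known as routes around EGFR inhibition, 11 fell and 3 rose (IGF1R at 0.43, KIT at 0.5 and DDR1 at 0.26), with a median of -0.82. AXL, a receptor known for resistance to EGFR inhibitors (chr19:41725108-41767671), measured 159.4, 141.1, 141.4 and 149.7 FPKM with vehicle and 43.1, 45, 40.4 and 41.8 FPKM with both compounds. AZ1366 alone gave 59 ± 7.07 FPKM and gefitinib alone 92.4 ± 3.48, and all 4 combination libraries of AXL lay below the other 12. MET, the receptor for hepatocyte growth factor, went from 105.9 ± 0.565 to 40.3 ± 1.7 FPKM, and ROR1, a receptor for a Wnt ligand, fell by 1.13 on the log2 scale.

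**Figure D2:**
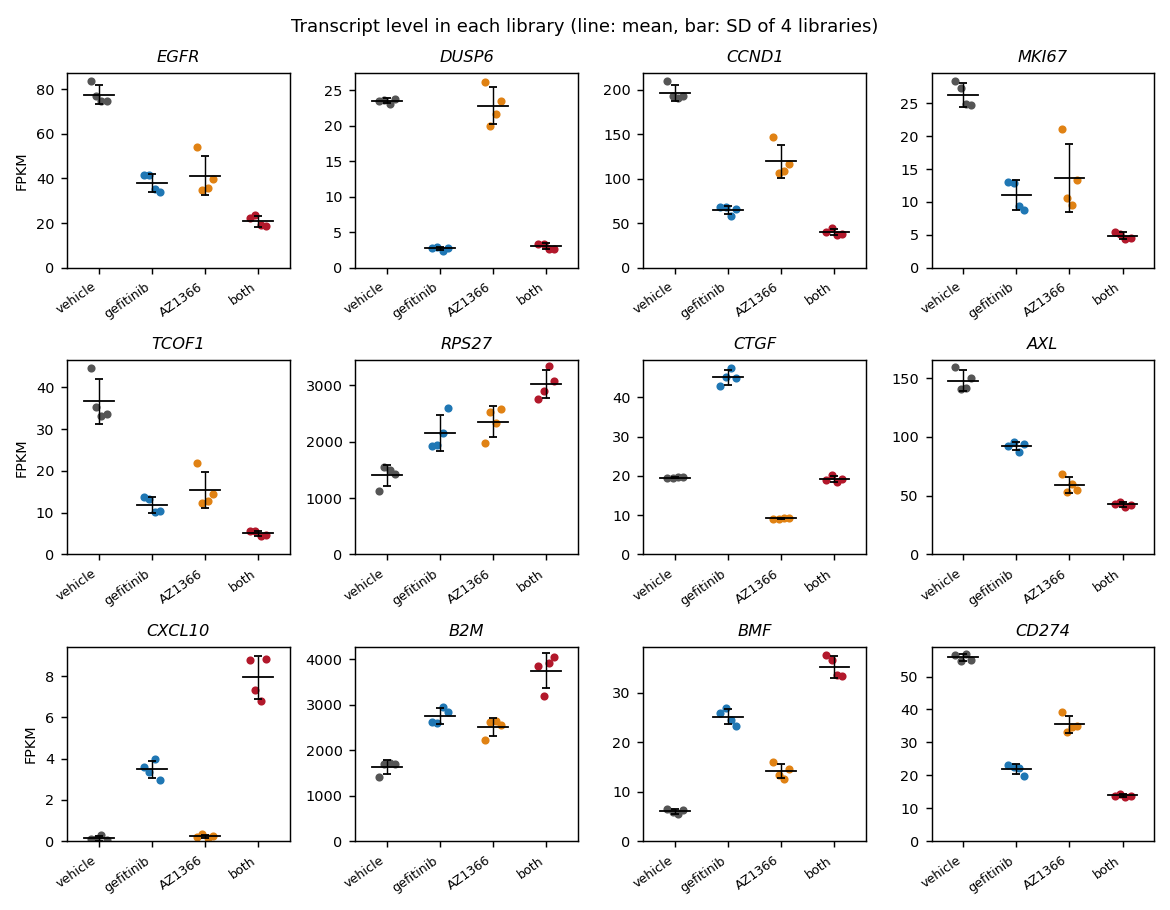
FPKM of 12 genes in each library (points) of the 4 treatment groups, with the mean and SD of 4 libraries, on linear axes that start at 0. The combination lies below the other 12 libraries for EGFR, CCND1, MKI67, TCOF1, AXL and CD274 and above them for RPS27, CXCL10, B2M and BMF in the deposited values, while DUSP6 overlaps gefitinib and CTGF overlaps vehicle.

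The proliferation genes fell together. Of 44 tested genes of the G1/S transition and DNA replication, 44 fell, and of 48 genes of G2 and mitosis, 46 fell and 0 rose (limma, adjusted p below 0.05). The medians were -1.15 and -1.25, and the combination libraries lay below the other 12 for 44 of 44 and 45 of 48 of them, where 21.1% of all loci did. The 2 mitotic genes that did not pass were CKS2 (0.09) and SPC25 (-0.18), whose signs depended on the scaling. After median-ratio scaling 43 of 44 and 45 of 48 fell and 1 mitotic gene rose. In bulk RNA, fewer cycling cells and less RNA of these genes per cell cannot be told apart.

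MKI67, the marker of cycling cells (chr10:129894925-129924468), measured 28.4, 27.3, 24.9 and 24.7 FPKM with vehicle and 5.48, 5.12, 4.37 and 4.53 FPKM with both compounds. With gefitinib it measured 13.1, 12.9, 9.44 and 8.71 and with AZ1366 21.1, 10.6, 9.57 and 13.3, so the single compounds overlapped each other and the combination overlapped neither. Its change from vehicle was -2.22 ± 0.17 (adjusted p = 1.97e-09), with -1.02 ± 0.17 against gefitinib (adjusted p = 0.00017) and -1.26 ± 0.17 against AZ1366 (adjusted p = 5.75e-06). CENPE, the kinetochore motor (chr4:104026963-104119566), measured 12.2, 12.2, 12.4 and 11.6 FPKM with vehicle and 0.867, 1.06, 0.553 and 0.64 FPKM with both compounds. Its combination libraries were all below the lowest of the others, and it fell by 2.89 on the log2 scale (SE 0.31, adjusted p = 1.41e-07). CENPF and ASPM, of the kinetochore and the spindle pole, fell by 2.27 and 2.16. ANLN, the anillin of the cleavage furrow, went from 237.2 ± 8.48 to 58.8 ± 3.09 FPKM, with 136.6 ± 20.3 under gefitinib and 146 ± 23.3 under AZ1366.

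Among replication genes, UHRF1, which copies DNA methylation after replication (chr19:4909510-4962165), measured 47.4, 37.4, 38.3 and 39.1 FPKM with vehicle and 7.83, 7.8, 5.99 and 6.16 FPKM with both compounds. It lay below every other library, since gefitinib gave 18.9, 18.4, 15.9 and 16.8 and AZ1366 32.6, 17.9, 20.2 and 21.4 FPKM. CDC6 and MCM10, which load and activate the replicative helicase, fell by 2.07 and 2.2, and CHAF1A, a histone chaperone at the fork, fell by 1.76. Below the other 12 libraries by the widest distance were, besides CENPE, ASPM, UHRF1 and ANLN, the genes KIF20B (-1.22 against gefitinib), SGOL2 (-1.21), FAM111B (-1.17) and ZNF367 (-1.14 against AZ1366). KIF20B is a kinesin of cell division and SGOL2 protects the cohesion of sister chromatids. The values are differences of log2(FPKM + 1) from the nearest group.

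The promoters of these genes are shown because 2 sequence elements of the cell cycle are known in them, the E2F site of G1/S genes and the CHR element of mitotic genes. The windows are the 250 bases before the start of transcription in RefSeq (GRCh38.p14), printed along the strand of the gene, with matches on either strand in capitals. Each motif was searched without regard to matches of the others. MKI67 and POLA2 are shown as examples whose window holds the motif. No ranking by change among all such members is given.
MKI67 (chr10:128126424-128126673, minus strand, CHR): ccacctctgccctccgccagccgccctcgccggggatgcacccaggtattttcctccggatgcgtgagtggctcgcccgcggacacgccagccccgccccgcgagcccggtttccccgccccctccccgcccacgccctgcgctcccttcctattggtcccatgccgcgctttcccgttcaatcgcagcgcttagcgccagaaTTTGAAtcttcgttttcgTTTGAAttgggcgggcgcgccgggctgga
POLA2 (chr11:65261712-65261961, plus strand, E2F): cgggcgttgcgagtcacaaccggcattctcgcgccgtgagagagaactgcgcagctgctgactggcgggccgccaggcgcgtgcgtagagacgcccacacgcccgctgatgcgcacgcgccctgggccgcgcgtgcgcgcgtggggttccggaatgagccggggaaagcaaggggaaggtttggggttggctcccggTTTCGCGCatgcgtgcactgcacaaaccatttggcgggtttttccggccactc
MKI67 has 2 CHR matches. POLA2, a subunit of the polymerase that primes replication, fell by 1.39 on the log2 scale. The letters TTTGAA stood in the window of 20 of 42 mitotic genes with an entry (47.6%), and in 13.6% of all 27305 windows. TTTGGCGC or TTTCGCGC stood in 6 of 37 G1/S genes (16.2%) and in 0.996% of all windows. A match describes these letters and does not show a site in use.

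Genes of homologous recombination and of the Fanconi pathway, which repair broken and crosslinked DNA, fell in 25 of 28 tested cases, with a median of -1.04. FANCF (0.2) rose, though not without combination library 2 (0.14, adjusted p = 0.0732 by limma), and FANCL (-0.15) and RMI2 (-0.17) did not pass. Both turned sign after quantile normalization (0.07 and 0.05) and were called lower after the correction for length and GC (-0.46 and -0.43) and without vehicle library 1 (-0.19 and -0.22), and FANCL also without vehicle library 4 (-0.18) and with the replicate block (-0.15). BRCA2, a mediator of homologous recombination (chr13:32889617-32973809), measured 5.14, 6.06, 5.85 and 5.7 FPKM with vehicle and 1.16, 0.948, 1.07 and 0.808 FPKM with both compounds. BRCA1 measured 13.3, 11.4, 11.9 and 12.5 with vehicle and 3.73, 3.21, 3.31 and 3.46 with both compounds. For both genes the combination lay below all 12 other libraries, with gefitinib at 2.79 ± 0.823 and 7.31 ± 1.4 FPKM and AZ1366 at 3.61 ± 1.07 and 9.08 ± 1.43. BRCA2 fell by 1.75 (adjusted p = 3.88e-09) and BRCA1 fell by 1.58 (adjusted p = 3.58e-10), and the nuclease EXO1 fell by 1.59.

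Inhibitors of the cell cycle and targets of p53 moved in both directions, with 12 of 23 higher and 7 lower. TP53INP1, which links p53 to autophagy and cell death (chr8:95938200-95961615), measured 1.03, 0.976, 1.01 and 1.13 FPKM with vehicle and 12.3, 11.8, 11.4 and 11.7 FPKM with both compounds. Gefitinib gave 6.29 ± 1.24 and AZ1366 2.92 ± 0.379, and the combination lay above all of these libraries. CCNG2, a cyclin that slows the cycle, rose by 1.21, CDKN1C, the kinase inhibitor p57, by 1.04 and BTG2, an antiproliferative gene, by 1.07. PLK2, a kinase that p53 induces, was among the 7 that fell (-0.96).

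The genes that build ribosomes fell, while most genes of the ribosome's own proteins rose. Of 32 tested genes of ribosome biogenesis 28 fell and 0 rose, with a median of -1.31. NHP2, NOP10, NPM1 and TAF1D did not pass as deposited, with changes from -0.21 to 0.07. After the correction for length and GC NHP2 (-0.36, adjusted p = 8.31e-06 by limma), NOP10 (-0.48, adjusted p = 3.29e-08) and NPM1 (-0.53, adjusted p = 7.51e-05) were called lower. TAF1D stood at -0.1 there and did not pass. NPM1 was also called lower after quantile normalization (-0.58, adjusted p = 3e-04), with the replicate block (-0.21), and without vehicle library 1 (-0.3) or 4 (-0.29). After median-ratio scaling NHP2 (0.21, adjusted p = 0.0146 by limma) and TAF1D (0.24, adjusted p = 0.0114) were called higher, and TAF1D also after quantile normalization (0.22, adjusted p = 0.0206). TCOF1, the treacle protein of ribosomal DNA transcription (chr5:149737202-149779871), measured 44.5, 35.2, 33.1 and 33.5 FPKM with vehicle and 5.5, 5.72, 4.38 and 4.55 FPKM with both compounds. The single compounds lay between, at 11.8 ± 1.88 FPKM with gefitinib and 15.4 ± 4.41 with AZ1366. It fell by 2.63 on the log2 scale (SE 0.15, adjusted p = 2.81e-11). DKC1, the pseudouridine synthase dyskerin, went from 89.7 ± 1.13 to 26.6 ± 0.867 FPKM, NOLC1, a nucleolar chaperone, from 63.6 ± 3.27 to 18.7 ± 1.31, and RRS1, an assembly factor, from 26.3 ± 3.08 to 6.43 ± 0.907. LYAR, a nucleolar growth regulator outside the list, was among the 10 largest falls at -2.43 ± 0.094.

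Of 50 cytosolic ribosomal protein genes 43 rose and 0 fell, with a median of 0.49. The transcripts of this list are short (median 882 bases), and after the correction for length and GC 26 rose and 11 fell, with a median of 0.13. After quantile normalization 31 rose and 8 fell. RPS27 measured 1126.2, 1552.2, 1497 and 1424 FPKM with vehicle and 2761.4, 2894.5, 3334.2 and 3073.9 with both compounds. RPL39 measured 1063.1, 1663.2, 1450.8 and 1472.8 and 3189.4, 3195.1, 4519.3 and 4020.7. In both genes the 4 combination libraries were the highest of the 16 as deposited, and after quantile normalization neither gene differed from gefitinib at the threshold (0.27, adjusted p = 0.124 for RPL39, and 0.14, adjusted p = 0.105 for RPS27). RPL34, RPL37 and RPL15 rose by 1.04, 0.92 and 0.91, and these genes have processed copies in the genome that may share their reads.

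Subunits of oxidative phosphorylation rose in 29 of 40 cases and fell in 3 (SDHB at -0.3, SDHA at -0.24 and NDUFS1 at -0.16, of which 0 passed after median-ratio scaling, where NDUFS1 stood at 0.01), with a median of 0.4. These transcripts are short too (median 1068 bases), and after the correction for length and GC 20 rose and 10 fell, with a median of 0.1. COX7B and COX6C of cytochrome oxidase rose by 1.28 and 1.24, and NDUFA1 and NDUFA4 by 1.18 and 1.15. Of 20 aminoacyl-tRNA synthetases, which charge tRNAs for translation, 13 fell and 5 rose. FARSA and FARSB, the subunits of the phenylalanine enzyme, fell by 1.02 and 0.91 and IARS by 0.85, while QARS (0.65), WARS (0.61), CARS (0.23), RARS (0.18) and DARS (0.15) rose. Without vehicle library 1 RARS and DARS no longer passed and 3 rose.

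The tankyrase genes themselves did not pass the test. TNKS measured 3.92, 3.87, 3.93 and 3.61 FPKM with vehicle and 3.73, 3.72, 3.76 and 3.64 FPKM with both compounds, a change of -0.04 ± 0.055 (adjusted p = 0.563). TNKS2 measured 14.7, 15.3, 15.6 and 14.9 and 16.4, 16.5, 14.5 and 14.8, a change of 0.04 ± 0.073 (adjusted p = 0.639). The groups overlapped for both genes as deposited, and the change of TNKS had the opposite sign after quantile normalization (0.11, adjusted p = 0.0517), median-ratio scaling (0.11, adjusted p = 0.0462) and the length and GC correction (0.24, adjusted p = 0.000103). TNKS2 passed under the same settings at 0.26, 0.21 and 0.24. Where 49.4% of all loci fell and 29.9% rose, 8 of 15 tested tankyrases and known substrates fell and 1 rose. Their median was -0.26. After median-ratio scaling 7 fell and 5 rose, and after the other 2 scalings 4 rose. RNF146, the ligase that recognises the ADP-ribose mark, was the gene that rose (0.49). AXIN1 went from 5.36 ± 0.514 to 2.5 ± 0.407 FPKM and fell by 0.87, while its difference from AZ1366 alone did not pass as deposited (-0.19, adjusted p = 0.166) but did after the correction for length and GC (-0.2, adjusted p = 0.0353).

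AXIN2 and NKD1, feedback genes of the Wnt pathway, were too low for the fit across loci. AXIN2, the usual readout of beta-catenin (chr17:63524683-63557740), was under the abundance limit at 0.1, 0.0353, 0.073 and 0.0897 FPKM with vehicle and 0.0209, 0.039, 0.00833 and 0.034 FPKM with both compounds. The groups overlapped, and an exact two-sided permutation test gave p = 0.0571, where 0.0286 is the smallest value that 4 against 4 libraries allow (0.114 adjusted over 2 genes). NKD1, a Wnt antagonist, averaged 0.0104 ± 0.00975 and 0.00929 ± 0.00467 FPKM (exact permutation p = 0.886). Of the 8 feedback targets above the limit 6 fell and 2 rose (TNFRSF19 at 1 and LGR5 at 0.21). The 6 hold CCND1 and MYC, which are also induced through ERK. MYC (chr8:128748315-128753680) measured 5.69, 6.63, 5.81 and 4.77 FPKM with vehicle and 1.56, 1.57, 1.25 and 1.22 FPKM with both compounds, below all other libraries, and fell by 1.48 on the log2 scale (adjusted p = 2.19e-11). DKK1, a secreted Wnt inhibitor, stood at 64.6 FPKM with vehicle and 34.2 with both compounds, and at 59.9 and 39.8 under gefitinib and AZ1366 alone. Of 27 Wnt ligands, receptors and destruction complex genes 19 fell and 5 rose, with a median of -0.31. DVL1, the relay protein dishevelled, fell by 1.42, the ligand WNT7B by 0.98 and APC of the destruction complex by 0.78.

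Targets of YAP and TEAD were lower than with gefitinib alone, and against AZ1366 alone some were higher and others lower. Against vehicle 18 of 28 fell, 1 rose (TGFB2 at 0.45, and 2 rose without vehicle library 2 or combination library 3) and 9 did not pass, with a median of -0.52. After quantile normalization 4 rose and after median-ratio scaling 5, with medians of -0.32 and -0.34, and after the correction for length and GC 2 rose and the median was -0.33. Against gefitinib alone 28 of 28 were lower, where 37.2% of all loci were lower and 15.3% higher, with a median of -0.73 against -0.1 for all loci. Against AZ1366 alone 13 were higher and 9 lower, where 26.9% and 35.7% of all loci were, with a median of 0.2 against -0.05. After the 3 scalings and corrections 27 or 28 of 28 were lower than with gefitinib, and 15 were higher than with AZ1366. These comparisons share the combination libraries.

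CTGF, a secreted YAP target (chr6:132269317-132272518), measured 19.5, 19.6, 19.7 and 19.7 FPKM with vehicle and 18.9, 20.2, 18.4 and 19.1 FPKM with both compounds, 43, 45.1, 47.6 and 44.9 with gefitinib and 9.14, 9.07, 9.31 and 9.16 with AZ1366. The combination overlapped vehicle, lay below all gefitinib libraries and lay above all AZ1366 libraries. Its change from vehicle was -0.03 ± 0.045 (adjusted p = 0.489), with -1.2 ± 0.045 against gefitinib (adjusted p = 1.48e-11) and 0.99 ± 0.045 against AZ1366 (adjusted p = 6.38e-12). The sign against vehicle turned after quantile normalization (0.17, adjusted p = 0.0062) and median-ratio scaling (0.14, adjusted p = 0.0232). ANKRD1, a nuclear ankyrin protein and YAP target, followed the same order at 13.6 ± 0.114, 21.9 ± 1.64, 4.87 ± 0.686 and 9.03 ± 0.607 FPKM, and was -0.54 from vehicle (adjusted p = 3.47e-06). CYR61, another secreted target, stood at 128.3 ± 5.59, 162.7 ± 5.74, 79.8 ± 5.03 and 90.6 ± 6.29 FPKM and fell by 0.5.

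Other targets fell well below vehicle. F3, tissue factor (chr1:94994732-95007413), measured 219.6, 235.6, 240.1 and 215.6 FPKM with vehicle and 54.3, 55.4, 52.2 and 52.2 FPKM with both compounds, below all 12 others. NT5E, the surface enzyme CD73 that makes adenosine (chr6:86159302-86205509), measured 196.7, 182.6, 184 and 179 with vehicle and 32.5, 35.5, 28.2 and 28.9 with both compounds. NT5E with gefitinib alone (40.1, 44.4, 35.1 and 37.7 FPKM) lay near the combination. FJX1 fell by 2.02 on the log2 scale. The window of PTPN14, a phosphatase that binds YAP and fell by 1.31, is shown as an example. This window holds the TEAD letters GGAATG, in capitals on either strand. Whether the members that fell further hold the letters is not stated here.
PTPN14 (chr1:214551603-214551852, GRCh38.p14, minus strand, TEAD): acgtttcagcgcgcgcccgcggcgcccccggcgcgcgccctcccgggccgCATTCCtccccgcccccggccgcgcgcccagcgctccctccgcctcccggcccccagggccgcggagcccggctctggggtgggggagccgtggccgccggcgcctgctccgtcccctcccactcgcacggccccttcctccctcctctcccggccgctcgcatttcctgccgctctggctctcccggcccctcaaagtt
The letters stood in 7 of 21 windows of the list (33.3%) and in 11.9% of all windows.

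**Figure D3:**
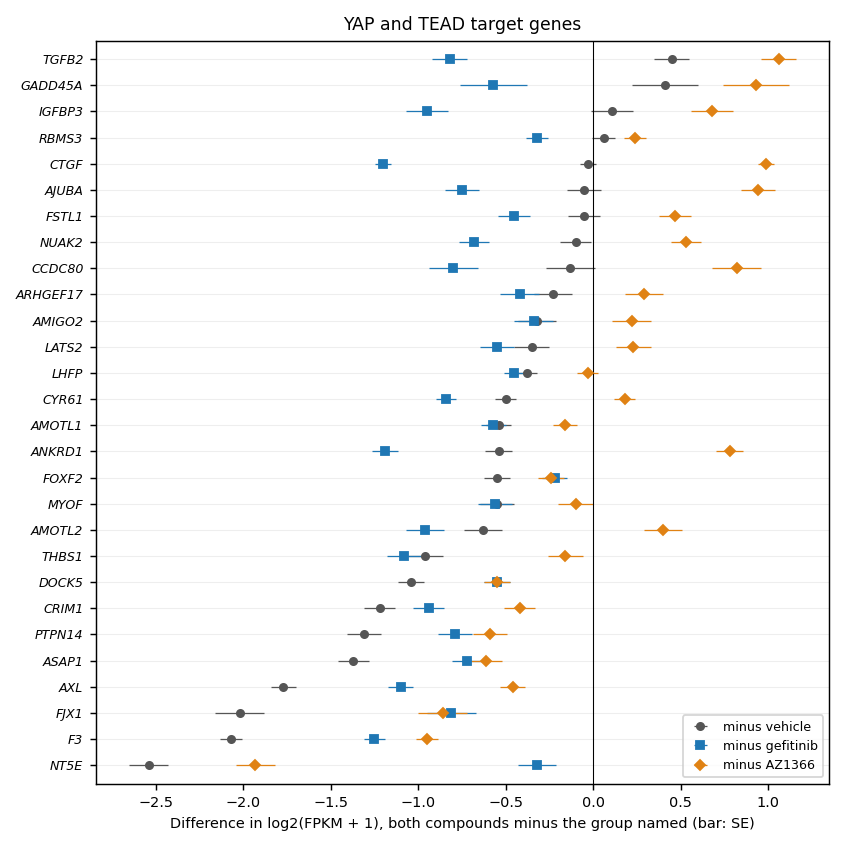
Differences in log2(FPKM + 1) of the 28 tested YAP and TEAD targets (rows) under both compounds against vehicle, gefitinib alone and AZ1366 alone, with the SE of the limma model as bars. All 28 points against gefitinib lie left of 0, while 13 genes were called higher and 9 lower than with AZ1366.

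Of 20 genes of the Hippo pathway itself 15 fell and 3 rose, with a median of -0.57. NF2, the upstream tumour suppressor merlin, went from 19.4 ± 2.1 to 5.14 ± 0.719 FPKM, WWC1 (KIBRA) from 35.2 ± 2.12 to 10.3 ± 1.21 and the scaffold SAV1 from 53.1 ± 2.69 to 21.9 ± 3.88. TEAD2, one of the DNA-binding partners of YAP, rose from 4.19 ± 0.484 to 12.7 ± 0.342 FPKM, and the TEAD cofactors VGLL1 (0.82) and VGLL4 (0.57) rose too. The angiomotins AMOTL1 and AMOTL2, substrates of tankyrase and targets of YAP, fell by 0.54 and 0.63, and AMOTL2 was higher than with AZ1366 alone (0.4, adjusted p = 0.00469).

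Interferon-stimulated genes rose. Of 46 tested, 44 rose and 0 fell, with a median of 1.18, and SAMD9 (0.26) and SP100 (0.11) did not pass. Against gefitinib alone 18 were higher and 1 lower, where 15.3% of all loci were higher and 37.2% lower. The median was 0.18 against -0.1 for all loci. Against AZ1366 alone 44 were higher, where 26.9% of all loci were, with a median of 0.88 against -0.05. The combination lay above all 12 other libraries for 18 of 46, where 10.1% of all loci did. After quantile normalization 25 and after median-ratio scaling 28 were higher than with gefitinib, and after the correction for length and GC 13 were, with a median of 0.1.

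OAS1, which makes the messenger that activates RNase L (chr12:113344739-113357712), measured 3.8, 4.19, 3.54 and 5.76 FPKM with vehicle and 24.4, 26.4, 25.2 and 24.2 FPKM with both compounds. With gefitinib it measured 19.2, 16.1, 16.5 and 14.4 and with AZ1366 7.82, 6.26, 8.43 and 10.1, and the combination was above all of them. MX1, a GTPase that blocks viruses, measured 8.09, 6.42, 7.06 and 17.1 with vehicle, 49.6, 45.6, 40.5 and 34.9 with gefitinib and 46.3, 54.6, 47.6 and 46 with both compounds. Its change from vehicle was 2.31 ± 0.22 (adjusted p = 2.38e-08), and the combination and gefitinib overlapped (0.19, adjusted p = 0.466). OAS2 rose by 2.61 ± 0.17, with a difference from gefitinib of 0.39 ± 0.17 that did not pass (adjusted p = 0.0575) but did after quantile normalization (0.51, adjusted p = 0.0127). IFI27, a mitochondrial interferon target, went from 10.7 ± 2.56 to 65 ± 5.69 FPKM. UBD, a ubiquitin-like protein induced by interferon gamma, had the largest rise of all tested loci (0.449 to 28 FPKM, 4.32), but its symbol stands at several loci and it was picked after its values were seen.

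The interferon response element is shown in the window of IFI27, an example from the list that holds its core GAAANNGAA. The 2 matches, 1 on each strand, are in capitals.
IFI27 (chr14:94110486-94110735, GRCh38.p14, plus strand, ISRE core): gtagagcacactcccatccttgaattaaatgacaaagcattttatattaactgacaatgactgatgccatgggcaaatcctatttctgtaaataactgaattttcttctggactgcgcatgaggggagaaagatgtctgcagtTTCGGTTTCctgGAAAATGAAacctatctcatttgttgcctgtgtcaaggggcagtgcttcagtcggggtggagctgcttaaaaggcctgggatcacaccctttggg
The core stood in 21 of 36 windows of the list (58.3%) and in 7.06% of all windows.

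Antigen presentation genes rose in part. Of 21 genes of class I presentation 13 rose and 3 fell (TAP2 at -0.54, PDIA3 at -0.19 and CALR at -0.14, or 0.04 after median-ratio scaling), with a median of 0.63, or 0.45 after the correction for length and GC. After median-ratio scaling 17 rose and 1 fell. PDIA3 did not pass after that scaling (-0.01), after the correction for length and GC (-0.05) or without combination library 3 (-0.17, adjusted p = 0.0623 by limma). B2M, the shared light chain of class I (chr15:45003685-45010357), measured 1407.6, 1703.2, 1722 and 1699.2 FPKM with vehicle and 3861.9, 3193.7, 3912.9 and 4053.3 FPKM with both compounds. Gefitinib gave 2623.5, 2603, 2963.3 and 2833.8 and AZ1366 2221.1, 2615.7, 2642.2 and 2562.9, so the combination lay above all of them, and B2M rose by 1.2 ± 0.087 (adjusted p = 7.8e-10). After quantile normalization its difference from gefitinib no longer passed (0.15, adjusted p = 0.227). The immunoproteasome subunit PSMB10 rose by 1.67, and PSMB9 and PSMB8 by 1.82 and 1.19, with symbols that stand at several loci. The abundance limit left 6 of 13 class II genes, and all 6 rose, among them CTSS (3.94 to 14.7 FPKM), the protease that trims the invariant chain. HLA-DMA (2.67 to 11.8 FPKM), HLA-DRA and HLA-DMB are also listed at several loci.

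The abundance limit left 17 of 30 listed chemokines and cytokines. Of these 11 rose and 3 fell (LIF at -0.98, IL11 at -0.95 and CSF2 at -0.57). Members low with vehicle, such as CXCL10 and CXCL11, passed the limit through treated libraries and could hardly be counted as falls. CXCL10, which attracts T cells through CXCR3, measured 0.119, 0.113, 0.326 and 0.0396 FPKM with vehicle and 8.77, 7.33, 6.8 and 8.83 FPKM with both compounds. Gefitinib gave 3.59, 3.34, 3.98 and 2.99 and AZ1366 0.214, 0.344, 0.139 and 0.237. CXCL11, a ligand of the same receptor, measured 0.494, 0.488, 0.553 and 0.884 with vehicle and 24.9, 25.2, 25.8 and 27.2 with both compounds, and 10.3, 11.2, 12.9 and 10 with gefitinib. For both genes the combination was the highest group with no overlap, at 2.96 ± 0.091 and 4.07 ± 0.089 from vehicle (adjusted p = 1.53e-14 and 3.33e-16). The file gives both genes the same locus interval (chr4:76932333-77033955). CCL2, which attracts monocytes (chr17:32582296-32584220), measured 36.9, 45.4, 41.6 and 40.3 with vehicle, 220.1, 209, 227.9 and 237.7 with gefitinib and 301.4, 319, 300.1 and 322 with both compounds, again above the other 12. TNFSF10, the death ligand TRAIL (chr3:172223298-172241297), measured 10.9, 12.9, 11.5 and 14.8 and 93.6, 95, 94 and 94.5. IL32 (11.3 to 41.4 FPKM) rose too, as did LTB (3.11), whose symbol stands at several loci.

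Among 21 genes of the NF-kB pathway 9 rose and 5 fell, with a median of 0.05, or 0.19 to 0.23 under the 3 scalings and corrections. SOD2, the mitochondrial superoxide dismutase, went from 34.5 ± 2.21 to 118 ± 5.35 FPKM, and NFKBIA, the inhibitor that NF-kB induces, from 34.1 ± 3.46 to 83.1 ± 6.66. ICAM1 rose by 1.11 with no difference from gefitinib that passed (-0.15, adjusted p = 0.23). Of 12 immune checkpoint genes 7 rose and 5 fell. CD274, which encodes PD-L1 (chr9:5450503-5470567), measured 56.4, 54.8, 56.8 and 55 FPKM with vehicle and 13.6, 14.5, 13.5 and 13.8 FPKM with both compounds. Gefitinib gave 23.3, 22.6, 22.2 and 19.7 and AZ1366 39.2, 33.1, 34.6 and 35, and the 4 groups did not overlap. CD274 fell by 1.93 on the log2 scale (SE 0.058, adjusted p = 1.28e-14). VTCN1, the ligand B7-H4 (chr1:117686209-117753582), measured 3.69, 3.7, 3.91 and 3.98 with vehicle, 42.3, 46.1, 44.2 and 38.9 with gefitinib and 46.7, 44.7, 47.6 and 43.5 with both compounds. It rose by 3.27 ± 0.06, and its difference from gefitinib did not pass as deposited (0.09 ± 0.06, adjusted p = 0.216) but did after median-ratio scaling (0.2, adjusted p = 0.00738). LGALS9, galectin 9, went from 3.1 ± 0.278 to 24 ± 0.928 FPKM, and PVR, the poliovirus receptor, fell by 1.57.

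BMF had the largest rise among the pro-apoptotic members of the BCL2 family. Of 12 pro-apoptotic members 6 rose and 3 fell (BNIP3 at -0.41, BOK at -0.32 and BAX at -0.26), with a median of 0.24, and after quantile normalization or median-ratio scaling 7 rose and 1 fell. After the correction for length and GC 5 rose and 5 fell, with a median of 0.01. BMF, a BH3-only protein that binds pro-survival members (chr15:40380092-40401075), measured 6.52, 5.83, 5.51 and 6.29 FPKM with vehicle and 37.7, 36.6, 33.6 and 33.4 FPKM with both compounds, against 25.9, 26.9, 24.6 and 23.4 with gefitinib and 16.1, 13.4, 12.7 and 14.7 with AZ1366. BCL2L11, which encodes BIM, the mediator of cell death under EGFR inhibitors (chr2:111878491-111926022), measured 2.9, 2.61, 2.16 and 2.66 with vehicle and 4.72, 4.97, 4.63 and 4.66 with both compounds. The combination was above the other 12 libraries for both genes. BCL2L11 rose by 0.69 ± 0.062 (adjusted p = 1.73e-08), and BBC3 (PUMA) and BIK each by 1.21. Of 10 pro-survival genes 5 rose and 5 fell, with a median of -0.03 that turned positive after quantile normalization (0.06) and median-ratio scaling (0.15). BCL2L1, which encodes BCL-XL, went from 137.1 ± 8.48 to 70.2 ± 2.71 FPKM and BIRC5, survivin, from 69.6 ± 2.85 to 39.1 ± 1.95. BIRC3, an inhibitor of apoptosis that NF-kB induces, rose from 9.47 ± 0.71 to 26.4 ± 1.05.

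Targets of FOXO and genes of PI3K feedback rose in 16 of 25 cases and fell in 2 (IRS2 at -0.69 and FOXO3 at -0.26, or 0.02 after the correction for length and GC), with a median of 0.64. The call of FOXO3 ended without vehicle library 1 (adjusted p = 0.0557 by limma), combination library 3 (0.0736) or combination library 4 (0.0697). KLHL24, an adaptor of a ubiquitin ligase (chr3:183353411-183402304), measured 1.95, 2.28, 2.19 and 2.23 FPKM with vehicle and 16.8, 16.9, 17.2 and 17.4 FPKM with both compounds, above the other 12. YPEL5 went from 37.6 ± 3.36 to 143.3 ± 6.11 FPKM. FBXO32, the ligase atrogin-1, rose by 1.76, and its difference from gefitinib did not pass as deposited (0.13, adjusted p = 0.0882) but did at 0.23 or 0.24 under the 3 scalings and corrections. Of 40 lysosome and autophagy genes 28 rose and 6 fell, with a median of 0.36. GABARAPL1, which coats autophagosomes, went from 3.13 ± 0.156 to 14.6 ± 0.652 FPKM, the cargo receptor SQSTM1 from 153.6 ± 8.05 to 319.7 ± 17.9 and the protease CTSH from 62.9 ± 7.11 to 135.1 ± 7.26.

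NRF2 targets and ferritin rose in 16 of 21 cases. FTH1, the ferritin heavy chain (chr11:61717356-61735132), measured 905.3, 1135.7, 1146.7 and 1043.9 FPKM with vehicle and 2681.7, 2824, 2792.4 and 2928.7 FPKM with both compounds. It lay above all 12 others as deposited, but its difference from gefitinib was 0.01 after quantile normalization (adjusted p = 0.937). GPX4, which reduces lipid peroxides, went from 91.5 ± 2.13 to 179.1 ± 8.56 FPKM. AKR1C3 rose by 1.5. The 4 that fell were SRXN1 (-0.84), OSGIN1 (-0.51), GCLC (-0.5) and GCLM (-0.45). The last 2 encode the enzyme that makes the precursor of glutathione.

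Most genes of lipid synthesis and of glycolysis fell. Of 25 genes of cholesterol synthesis and uptake 20 fell and 1 rose, with a median of -0.59. MVD, which makes isopentenyl pyrophosphate, measured 27.2, 20.7, 20.7 and 22.6 FPKM with vehicle and 10.7, 10.9, 9.27 and 9.53 FPKM with both compounds, below all 12 other libraries, and fell by 1.1. TM7SF2, a sterol reductase, was the gene that rose, from 9.51 ± 1.1 to 37.3 ± 1.54 FPKM, and 2 genes rose without vehicle library 3. Of 16 genes of fatty acid synthesis 14 fell and 1 rose (ME1 at 0.37), with a median of -0.8, or -0.58 after the correction for length and GC. FASN, fatty acid synthase (chr17:80036214-80056106), measured 48.8, 36, 34.1 and 39.4 with vehicle and 11, 10.9, 9.19 and 9.5 with both compounds, below the other 12. SCD, which desaturates fatty acids, went from 119.3 ± 11.9 to 45.3 ± 3.4 FPKM and ELOVL6, which lengthens them, from 34.4 ± 1.07 to 10.4 ± 0.623.

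Of 29 genes of glycolysis and the hypoxia response 22 fell and 0 rose as deposited, with a median of -0.42, and 16 fell and 3 rose after median-ratio scaling. HK2, the hexokinase of proliferating cells, went from 21.1 ± 0.9 to 6.76 ± 0.456 FPKM, SLC2A1, the glucose transporter GLUT1, from 74.9 ± 3.28 to 37.1 ± 1.89 and VEGFA from 17.4 ± 1.01 to 5.79 ± 0.848. In lipolysis and fatty acid oxidation 13 of 23 rose and 6 fell. G0S2, an inhibitor of the triglyceride lipase (chr1:209848670-209849735), measured 109.7, 119.8, 115.1 and 107.9 FPKM with vehicle and 15.5, 16.6, 13.9 and 14.3 FPKM with both compounds, with 24.6 ± 3.2 under gefitinib and 58.3 ± 7 under AZ1366. The combination of G0S2 lay below every other library. ACAA2 and ETFDH, enzymes of oxidation, rose by 0.88 and 0.79.

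Heat shock proteins fell in 15 of 22 cases and rose in 3, or in 13 and 5 after median-ratio scaling. HSP90AA1, the inducible HSP90 (chr14:102547075-102606086), measured 1336, 1303, 1431.6 and 1412.1 FPKM with vehicle and 718.5, 733.1, 647.9 and 659 FPKM with both compounds, below the other 12. HSPH1 fell by 1.24, while the small heat shock proteins HSPB1 (229.2 ± 11.2 to 575.4 ± 21.6 FPKM) and HSPB8 (1.2) rose, as did DNAJB4 (0.42). The ATF4 response adapts cells to amino acid shortage. Of its 22 genes 7 rose and 11 fell, near the shares of all loci (29.9% and 49.4%). Their median of -0.13, against -0.15 for all loci, was 0.05 after quantile normalization and 0.04 after median-ratio scaling. ATF3 rose by 1.17 and CHAC1, which breaks down glutathione, by 0.99, and STC2 fell by 1.51. Of 14 amino acid transporters 5 rose and 7 fell, also near those shares, and after the correction for length and GC 7 rose and 5 fell. SLC7A1, a carrier of cationic amino acids, fell by 0.8 and SLC6A9, a glycine transporter, rose by 0.91.

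Polyamine genes moved in both directions. ODC1, which makes putrescine at the start of the pathway (chr2:10580508-10588453), measured 77.2, 84.6, 88.7 and 82.7 FPKM with vehicle and 18.9, 19, 18.5 and 18.6 FPKM with both compounds. SAT1, which acetylates polyamines for export and breakdown (chrX:23801275-23804327), measured 46, 52.9, 55.1 and 54.4 and 193, 171, 191 and 186.2. In ODC1 the combination lay below all 12 other libraries and in SAT1 above them, with changes of -2.09 ± 0.061 and 1.81 ± 0.08 (adjusted p = 1.08e-14 and 1.26e-12). SRM, spermidine synthase, fell by 1.53. Over the list 8 of 13 fell and 4 rose, among them the antizymes OAZ1 (0.24, or -0.07 after the correction for length and GC) and OAZ2 (0.44), which inhibit ODC1 protein, and the oxidase PAOX (0.35).

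**Figure D4:**
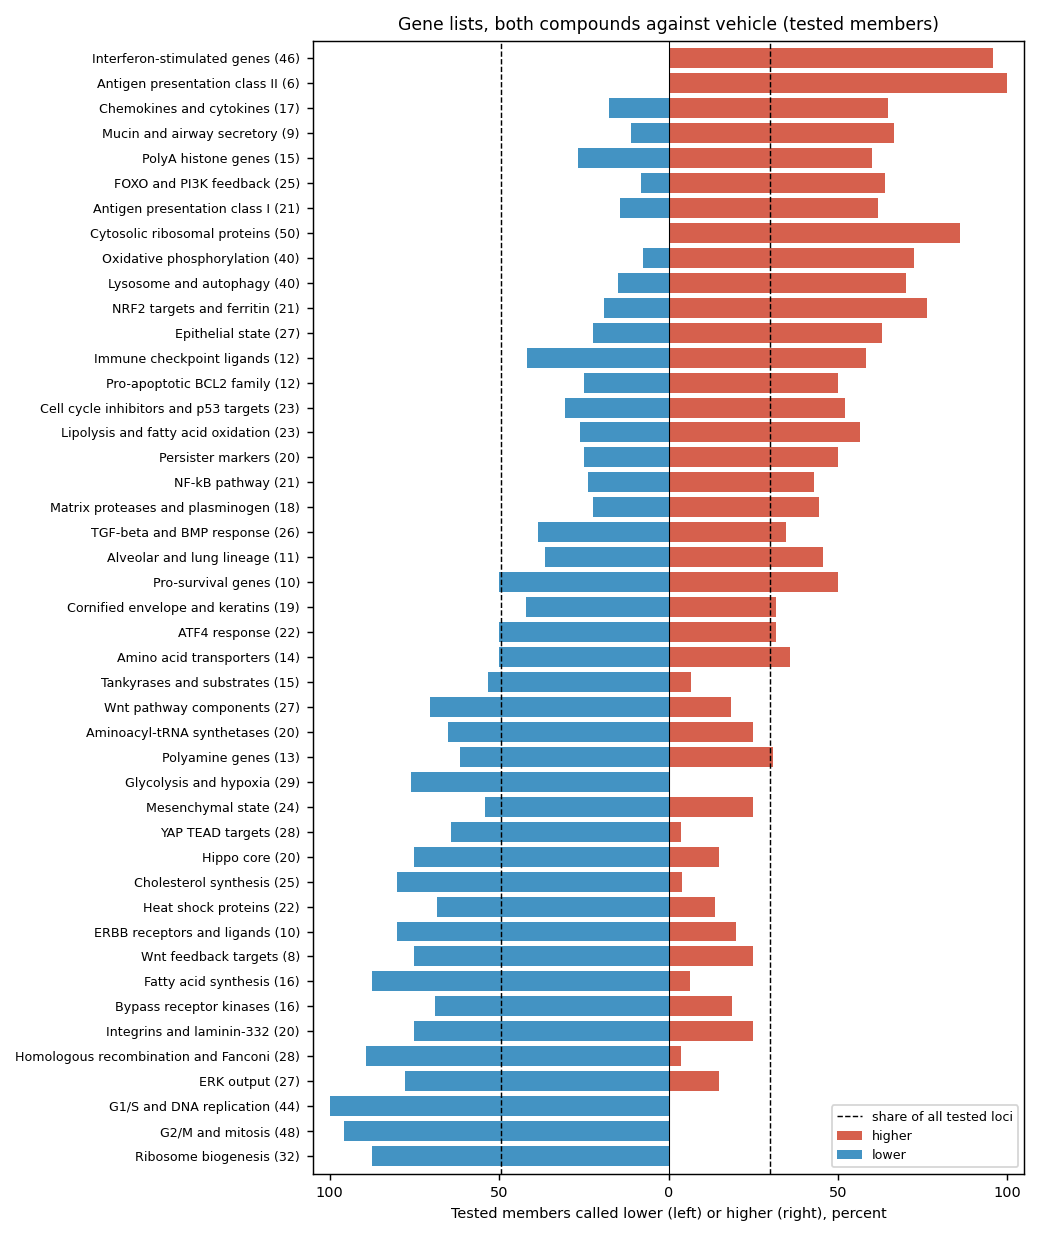
Percent of the tested members of each of the 45 gene lists called higher (right) or lower (left) with both compounds against vehicle, with the number tested in parentheses and lists ordered by their median change. Dashed lines mark the shares of all tested loci, 29.9% higher and 49.4% lower, and the bars run from 44 of 44 lower for G1/S genes to 44 of 46 higher for interferon-stimulated genes and 6 of 6 for class II genes.

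Lung lineage and secretory genes rose in part. SLC34A2, the phosphate transporter of alveolar type II cells (chr4:25657435-25680368), measured 2.01, 2.07, 1.95 and 2.04 FPKM with vehicle and 14.1, 14.4, 12.7 and 13.7 FPKM with both compounds. HOPX, a homeodomain gene of alveolar type I cells, measured 1.67, 1.49, 1.7 and 1.82 and 15, 12.9, 14.7 and 16.7. In both genes the combination was above the other 12 libraries. Over the lineage list 5 of 11 rose and 4 fell, among them CAV1 (-0.86), FOXA2 (-0.71) and ABCA3 (-0.55), and the median of -0.02 was 0.07 to 0.2 under the 3 scalings and corrections. Of 9 mucin and airway secretory genes 6 rose, including MUC1 (54.4 ± 4.75 to 167.7 ± 7.55 FPKM), MUC20 (12.4 ± 1.08 to 41.3 ± 1.6) and the protease inhibitor SLPI. SPDEF, the factor of goblet cells, fell from 34.3 ± 3.95 to 12.9 ± 1.05 FPKM and was the only member of that list that fell as deposited, while 2 fell without vehicle library 4.

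Of 27 epithelial genes 17 rose and 6 fell, with a median of 0.35, or 0.19 after the correction for length and GC. ELF3 went from 38.3 ± 3.58 to 83.5 ± 1.71 FPKM and the tight junction gene CLDN7 from 89.2 ± 6.99 to 183.3 ± 7.23, while PKP3 of the desmosome fell by 0.91. Of 24 mesenchymal genes 13 fell and 6 rose, where 49.4% of all loci fell and 29.9% rose. Their median was -0.48 against -0.15 for all loci. The mesenchymal genes named here all fell, while the highest change in the list was 0.75. TNC, the matrix protein tenascin C, went from 41 ± 4.52 to 12.7 ± 1.42 FPKM, the basement membrane collagens COL4A1 and COL4A2 fell by 1.4 and 1.22, and fibrillin FBN1 by 1.2. VIM, vimentin, fell by 0.63 and FN1, fibronectin, by 1.08. Of 19 keratin and cornified envelope genes 8 fell and 6 rose, near the shares of all loci (49.4% and 29.9%). Among them KRT16 (1.12) and S100P (1.71) were higher and PPL (-1.22) lower.

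The integrins split. Of 20 integrin and laminin-332 genes 15 fell and 5 rose, with a median of -0.9, or -0.67 after the correction for length and GC. ITGA6, a laminin receptor subunit (chr2:173292314-173371181), measured 137.3, 132.8, 138.3 and 137.9 FPKM with vehicle and 41.2, 42.3, 35.9 and 36.2 FPKM with both compounds. ITGB6, whose heterodimer with alpha V activates TGF-beta (chr2:160958233-161056590), measured 32.5, 29.6, 31 and 32.7 and 108.5, 110.5, 98.7 and 100. The other members that rose were ITGB8 (1.53), ITGB3 (1.31), ITGAV (0.75) and CD151 (0.23, which did not pass after quantile normalization at 0.07 or after the correction for length and GC at 0.05), and ITGAV is the alpha chain that pairs with all 3 of these beta chains. LAMB3, a chain of laminin-332 whose locus also carries a microRNA name, went from 438.2 to 150 FPKM.

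Among 18 matrix proteases and their inhibitors 8 rose and 4 fell. MMP7, matrilysin (chr11:102391239-102401478), measured 6.5, 7.32, 7.08 and 7.2 FPKM with vehicle and 77.2, 67.9, 72.9 and 78.2 FPKM with both compounds, 53.5, 51.1, 57.5 and 45.1 with gefitinib and 11.8, 14.5, 13.1 and 14.8 with AZ1366. ADAMTS1, a protease of proteoglycans (chr21:28208606-28217728), measured 11, 9.5, 9.94 and 8.98 with vehicle, 0.533, 0.481, 0.319 and 0.414 with both compounds, 3.1, 3.41, 2.52 and 2.81 with gefitinib and 2.09, 1.15, 1.48 and 1.24 with AZ1366. The combination was the highest group of MMP7 and the lowest of ADAMTS1 with no overlap, at 3.22 ± 0.078 and -2.92 ± 0.099 from vehicle. MMP13, a collagenase, went from 0.573 ± 0.0458 to 5.41 ± 0.439 FPKM.

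The combination lay above all 12 other libraries at 1178 loci (10.1%) and below them at 2463 (21.1%). Those above by the widest distance, besides CXCL11, CXCL10 and MMP13, were LY96, C8orf4, RND1, SPINK1 and TSPAN8. LY96, the partner of the endotoxin receptor (chr8:74903564-74941307), measured 5.1, 6.27, 7.26 and 5.41 FPKM with vehicle and 32.1, 34.3, 45.5 and 36.5 FPKM with both compounds, 16.6, 14.8, 18.5 and 19.7 with gefitinib and 11.7, 15.2, 15.9 and 14.7 with AZ1366. SPINK1, a trypsin inhibitor (chr5:147204143-147211260), measured 13.5, 12.2, 13.3 and 14.1 FPKM with vehicle and 118.7, 118.1, 131.4 and 128.1 FPKM with both compounds, 60.9, 69.6, 70.1 and 75.1 with gefitinib and 23.2, 30.6, 25.4 and 28.4 with AZ1366. In both genes each single compound lay between vehicle and the combination. C8orf4 went from 1.08 ± 0.14 to 17.5 ± 0.785 FPKM, the small GTPase RND1 from 1.4 ± 0.147 to 9.06 ± 1.17 and the tetraspanin TSPAN8 from 5.06 ± 0.574 to 16.9 ± 0.795. NCOA7, among the 10 largest rises, went from 6.71 ± 0.0879 to 57.1 ± 1.47. The largest fall in the fit was that of the small nucleolar RNA SNORD139, a kind of RNA that polyA libraries capture poorly, at 37.8, 69.4, 83.6 and 185.1 FPKM with vehicle and 0, 0, 17.8 and 0 with both compounds (-5.28, adjusted p = 0.00187). It was listed at 0 in 3 of the 4 combination libraries. Against gefitinib alone 1780 loci were higher (15.3%) and 4338 lower (37.2%), and 4 and 39 of them by at least 1 on the log2 scale. Against AZ1366 alone 3135 were higher (26.9%) and 4159 lower (35.7%), and 199 and 192 of them by at least 1.

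The most abundant transcripts changed the make-up of the libraries. The 100 most abundant loci of each library took 33.4 ± 1.02% of its FPKM with both compounds and 27.6 ± 0.622% with vehicle (SD, n = 4 each), and 29.6 ± 1.1% and 30.6 ± 1.42% under gefitinib and AZ1366. The largest gain in FPKM was that of TMSB4X, thymosin beta 4, which binds actin monomers, at 3111.5, 3648.2, 3613.2 and 3131.2 FPKM with vehicle and 5791.5, 5775.4, 6110.8 and 5829.8 FPKM with both compounds. The difference of TMSB4X from AZ1366 alone did not pass after quantile normalization (0.06, adjusted p = 0.439). RPL39, B2M, FTH1, RPS27 and TPT1 (1946.7 ± 186.8 to 3555.1 ± 242.6 FPKM) came next. Among the largest losses were those of the simple epithelial keratins KRT8 (1454.5 ± 136.5 to 694.9 ± 26 FPKM), KRT18 (1050.5 ± 76.5 to 486.3 ± 29.9) and KRT7 (1763.4 ± 172.4 to 1330.3 ± 77.4), and of HSP90AA1 and HSP90AB1 (1156.1 ± 9.26 to 726.7 ± 22.7). Of these, KRT7 overlapped AZ1366 alone, and the other 4 lay below all 12 other libraries. TMSB4X, FTH1, TPT1, KRT8, KRT18 and the HSP90 genes have processed copies in the genome, so their levels are uncertain where reads were shared.

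**Figure D5:**
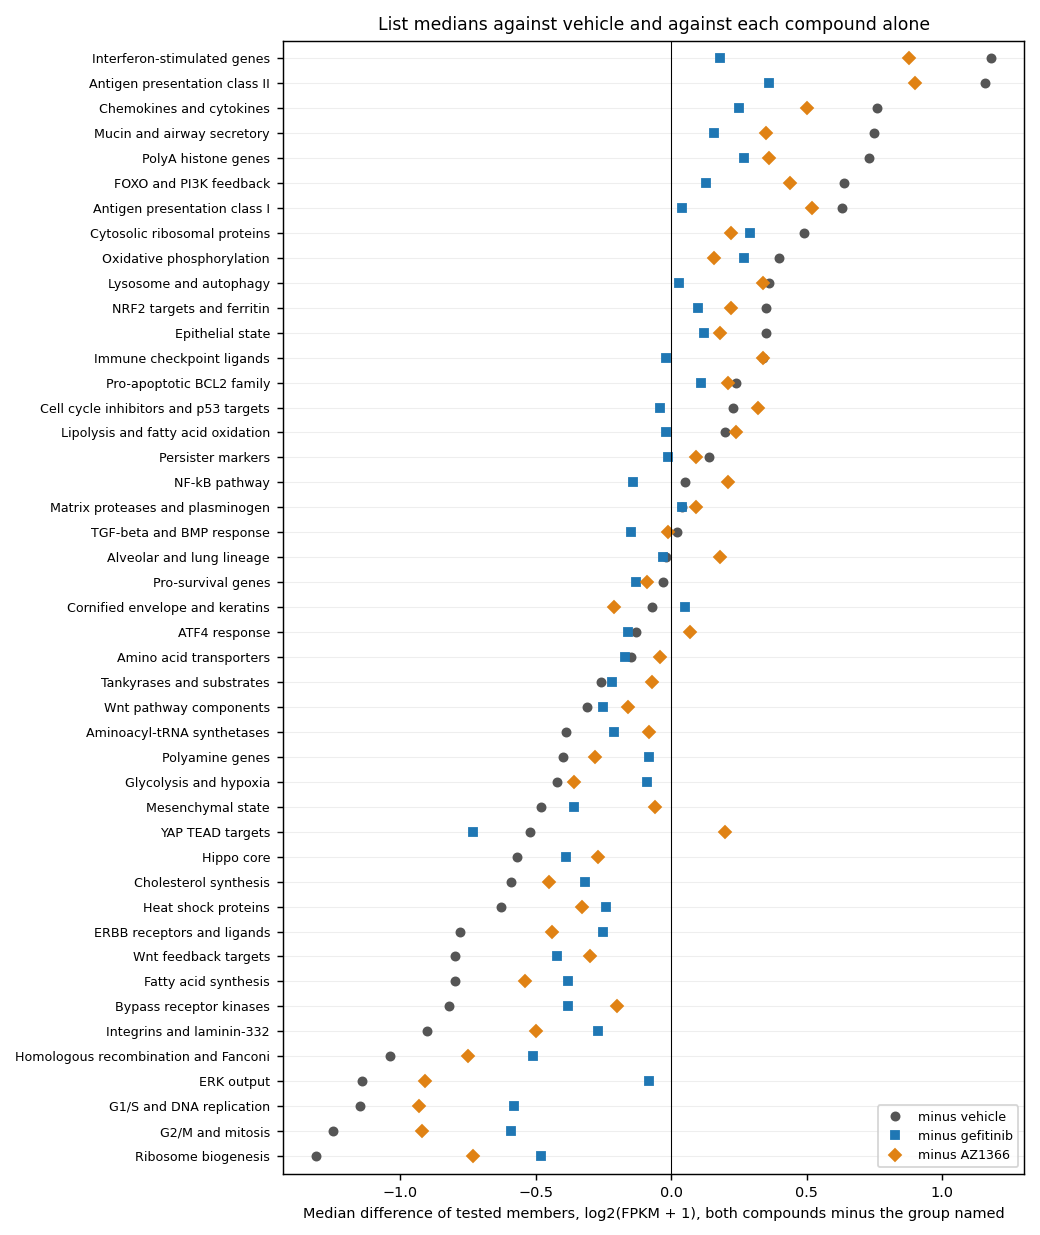
Median difference in log2(FPKM + 1) of the tested members of each of the 45 gene lists under both compounds against vehicle (circles), gefitinib alone (squares) and AZ1366 alone (diamonds), ordered by the value against vehicle. For ERK output the square lies near 0 (-0.08, or 0.05 after quantile normalization) and the diamond at -0.91. For interferon-stimulated genes the square lies at 0.18 (0.25 after quantile normalization and 0.29 after median-ratio scaling) and the diamond at 0.88. For the replication and mitosis lists both lie below -0.5. For YAP and TEAD targets the square (-0.73) lies below and the diamond (0.2) above 0.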

How the data were processed

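RNA from 16 libraries of HCC4006 was measured by polyA RNA-seq. The deposited table gives FPKM per locus, with no read counts analysed here. The submitters' processing notes name TopHat 1.4.1, Cufflinks 1.3.0, Cuffdiff and hg19, without their roles, and the annotation and the use of strand are not given in the sources used here. Per the labels, cells grew for 24 hours before 24 hours of treatment, and RNA was extracted as total RNA from frozen cells.

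Columns were matched to samples by their names. No pair of libraries held identical values. Loci with a mean of at least 1 FPKM over the 16 libraries were kept, and log2(FPKM + 1) was fitted with limma 3.58.1 (R 4.3.3) with a mean-variance trend over all 16 libraries, which share 1 estimate of spread with 12 residual degrees of freedom. Benjamini-Hochberg adjustment ran over 11647 loci. AXIN2 and NKD1 were tested by exact permutation of 4 against 4 libraries.

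Genes were named by a rule: the 10 largest rises and falls and the 6 largest gains and losses in FPKM among called, non-overlapping loci, the 8 farthest above and below the other 12 libraries, up to 4 called members per list, and 15 fixed genes. Another 67 genes, named as markers, as the few members of a count or as examples, were chosen after their values were seen. Of the 199 genes that the rule gives, 169 are named and the others are not reported here. The 45 lists and the comparisons were chosen with earlier results of these data known. Of the tested loci, 285 carry joined symbols and 193 a symbol found at several loci. Transcript length and GC were available for 99.31% of tested loci.

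On data simulated for this comparison, 200 of 11647 loci were changed by known amounts, and the fit recovered 40% of changes of 0.25, 96% of 0.5 and 100% of 1 and 2 on the log2 scale, with 6 false calls (3.45%). The simulated noise was independent between loci and libraries, and few loci were changed, while 9241 were called in the data. Such rates depend on the share of loci changed, so they may not hold for the data. Promoter windows came from RefSeq. Alternatives were another pseudocount, 2 other filters, quantile and median-ratio scaling, and a length and GC correction with 5 spline terms. Others were no trend, a replicate block, fits on the compared libraries alone, and leaving out each library. Without the filter, the gene groups kept only the members tested here.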

Additional observations from a re-analysis of the deposited data

Results flagged for a closer look

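In each group of 4 libraries of a named gene, the highest or lowest library was compared with the gap to its neighbour, and in 28 of 478 groups the gap, as a share of the group's range, was over Dixon's critical value for 4 samples, which chance passes in about 1 of 20 groups. Vehicle library 1 was the one apart in 16 of these. It was low for B2M (1407.6 FPKM), TPT1 (1668.5 FPKM), RPL34 (213.8 FPKM), YPEL5 (32.6 FPKM) and RMI2 (16.2 FPKM). It was high for CCND1 (209.9 FPKM), CENPF (31.2 FPKM), AKR1C3 (0.425 FPKM), HSPH1 (62.8 FPKM), KRT16 (3.02 FPKM), SRM (40.4 FPKM), CD151 (184.9 FPKM), GCLC (8.8 FPKM), IL11 (17.5 FPKM), LIF (11 FPKM) and VGLL1 (3.08 FPKM). Other vehicle libraries stood apart for CENPE (11.6 FPKM), OAS2 (4.04 FPKM), AMOTL1 (8.96 FPKM) and ANLN (249.9 FPKM).

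Among the combination libraries, library 3 held all of the SNORD139 that was listed (17.8 FPKM, with 0 in the other 3) and was apart for TMSB4X (6110.8 FPKM) and ABCA3 (1.79 FPKM). Library 2 was apart for PSMB9 (44.2 FPKM), CAV1 (133.8 FPKM), CYR61 (99.9 FPKM) and CSF2 (3.16 FPKM), and library 4 for UBD (31.4 FPKM). The part of these libraries in the calls is given by the values without them, and SNORD139 was called under every setting that gave it a value, which the length and GC correction did not.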

How the results depend on the processing

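The number of loci called against vehicle was 9241, and it was within 1.5 times of that under every setting tried except a minimum change of 1, which left 1320 loci (459 higher and 861 lower). The same minimum left 43 loci against gefitinib (4 higher, 39 lower) and 391 against AZ1366 (199 higher, 192 lower), since fewer loci can pass it. Loci higher than with gefitinib numbered 3064 after quantile normalization and 3099 after median-ratio scaling, against 1780 as deposited, and loci above the other 12 libraries numbered 1850 and 1859, against 1178. The cause was not tested. Leaving out 1 library gave 8867 to 9103 loci against vehicle (3322 to 3421 higher, 5446 to 5781 lower), 4879 to 6123 against gefitinib (1380 to 1792 higher, 3387 to 4489 lower), 6699 to 7328 against AZ1366 (2868 to 3527 higher, 3663 to 4444 lower), 1178 to 1321 above the other libraries and 2463 to 2986 below them. For AXIN2 the exact permutation p ran from 0.0286 to 0.0857, passing without vehicle library 2 (0.0286), and for NKD1 from 0.314 to 0.943, with the opposite sign without vehicle library 1 (0.314) and without combination library 3 (0.943). Same-numbered combination and vehicle libraries had deviations that correlated at 0.288, -0.239, 0.292 and 0.0403, and pairs with unlike numbers at -0.472 to 0.417. The labels do not say what a number marks, and these values do not settle it. With a replicate block 9388 loci were called against vehicle (3543 higher, 5845 lower), 6522 against gefitinib (1856 and 4666) and 7613 against AZ1366 (3258 and 4355). Of 3790 values of named genes under the settings, 3719 kept their direction and side of the threshold, 28 lost the call, 24 gained one and 19 changed sign. The changes of sign were, after quantile normalization, TNKS (0.11), CTGF (0.17), CKS2 (-0.04), FANCL (0.07), RMI2 (0.05) and SPC25 (0.03), after median-ratio scaling, TNKS (0.11), CTGF (0.14), CALR (0.04), FANCL (0.02) and NDUFS1 (0.01), after the length and GC correction, TNKS (0.24), CKS2 (-0.46), FOXO3 (0.02), NHP2 (-0.36), NOP10 (-0.48), OAZ1 (-0.07) and TAF1D (-0.1), and without vehicle library 1, NOP10 (-0.04, with values up to 0.06 without other libraries). Low FPKM limit what can be seen of AXIN2 and NKD1, and no depth is known for them.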

Other observations

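Of 15 tested genes from a list of polyA histone genes 9 rose and 4 fell, where 29.9% of all loci rose and 49.4% fell. The changes ran from -1.41 to 1.55, with a median of 0.73, or 0.43 after the correction for length and GC. All 6 tested genes of the histone clusters rose, and messages of these genes usually carry no polyA tail. HIST1H1C measured 10.4, 8.16, 8.83 and 8.67 FPKM with vehicle and 16.2, 17.1, 16.5 and 13.1 FPKM with both compounds.

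Of 20 markers described for drug-tolerant persister cells 10 rose and 5 fell, where 29.9% of all loci rose and 49.4% fell. Their median was 0.14 against -0.15 for all loci, or 0.3 to 0.39 under the 3 scalings and corrections. After quantile normalization 12 rose and 5 fell, after median-ratio scaling 15 and 5, and after the correction for length and GC 13 and 5. In the TGF-beta and BMP response 9 of 26 rose and 10 fell, beside the same shares of all loci, with a median of 0.02. KDR, the VEGF receptor listed among the endothelial markers, measured 0.535, 0.479, 0.466 and 0.557 FPKM with vehicle, 1.9, 1.92, 1.89 and 1.56 with gefitinib, 0.968, 0.831, 0.739 and 1.01 with AZ1366 and 3.33, 2.87, 3.33 and 3.16 with both compounds.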
